A study of Mus musculus with 15 samples.

Results

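Mpo, Elane, Prtn3, Ctsg and Ms4a3 are genes of the neutrophil primary granule and of the progenitors that make it. They were chosen by name and matched through Ensembl identifiers, and they are 5 of the 55416 gene identifiers counted in each library. The data are RNA sequencing of whole blood of C57BL/6 mice, 15 libraries in 3 groups of 5, with replicates 1 to 5 in each group. Untreated mice had neither antibody nor surgery. The other groups received repeated doses of αCTLA-4, an antibody against a T cell checkpoint receptor, with neck dissection (ND, surgical removal of the neck lymph nodes) either early or late. The question addressed here is how much RNA of each of these genes was in the blood of each group, and whether the groups differed.

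The mice were young females, and the tumor line was 4MOSC1, a carcinogen-induced syngeneic oral squamous carcinoma implanted in the tongue. The model is a single line in a single inbred strain. The labels give 10 days of tumor growth for all 3 groups, and the sources do not settle whether the untreated mice carried tumors. The sources also place the bleeding both before and after the late operation, so late ND is used here only as the name of a group. Both treated groups had antibody and an assigned operation, so against untreated mice the effects of antibody, surgery and timing cannot be told apart.

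Counts assigned to genes ran from 5862888 to 10796099 per library in untreated mice, from 5527108 to 7182346 in early ND and from 7849602 to 13924361 in late ND. Every late ND library was thus deeper than every early ND library, and limits of detection were lower in late ND than in early ND. Untreated 2 had a lower limit than late ND 1 and late ND 4, so that order did not hold against every untreated library. Untreated 2, late ND 2 and late ND 3 held much less 18S ribosomal RNA than the other 12 libraries, and Prtn3 is given below with and without them.

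The primary granule, also called azurophil granule, is the first granule to form in a developing neutrophil. Its contents are transcribed in promyelocytes of the bone marrow, and the transcripts decline before the cell reaches the blood, while the proteins stay. RNA of these genes in blood can therefore come from immature cells, and Prtn3 and Mpo are also transcribed along the monocyte lineage.

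The 5 genes differed widely in how often they were counted. Prtn3, which encodes proteinase 3, was counted in all 15 libraries, with 558 counts in total. Mpo, which encodes the heme enzyme myeloperoxidase, had 38 counts in total and none in 7 libraries. Elane, which encodes neutrophil elastase, had 19 counts and none in 9 libraries. Ctsg, which encodes the serine protease cathepsin G, had 32 counts and none in 5 libraries. Ms4a3, which encodes a membrane protein of granulocyte and monocyte progenitors and is not itself a protease, had 11 counts and none in 11 libraries. Prtn3 thus held 84.8% of the counts of the 5 genes (558 of 658), and 82.1% in untreated (55 of 67), 71.1% in early ND (59 of 83) and 87.4% in late ND (444 of 508). A statement about the sum of these genes in this blood is mostly a statement about Prtn3.

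**Figure D1:**
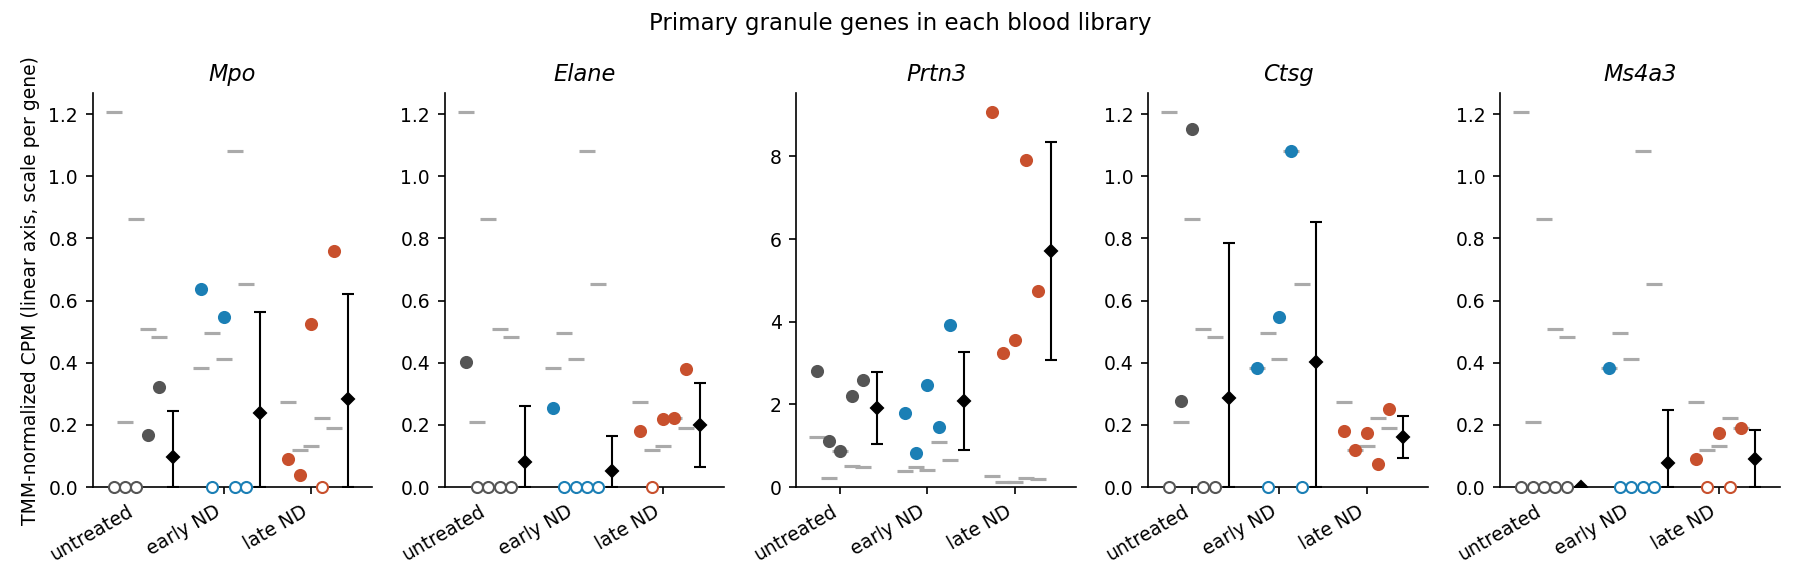
CPM (counts scaled to a common library size, here by TMM) of each of the 5 genes in each library, by group; open points are libraries with 0 counts, grey dashes their limit at 3 counts, and diamonds with bars the mean and SD with bars cut at 0. Prtn3 averaged 1.91, 2.09 and 5.70 CPM in untreated, early ND and late ND.

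Per kilobase of exon, Prtn3 was also the most abundant of the 5 in each group. It averaged 1.10, 1.21 and 3.29 CPM per kilobase in untreated, early ND and late ND, where Ctsg averaged 0.277, 0.390 and 0.156. The low-count filter kept Prtn3 and removed the other 4 genes in each of the 3 comparisons.

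Prtn3 was at 2.81, 1.11, 0.863, 2.20 and 2.58 CPM in untreated 1 to 5 (mean 1.91 ± 0.877, SD). In early ND 1 to 5 it was at 1.78, 0.828, 2.46, 1.44 and 3.93 CPM (mean 2.09 ± 1.19). In late ND 1 to 5 it was at 9.08, 3.25, 3.55, 7.90 and 4.74 CPM (mean 5.70 ± 2.64). All 5 late ND libraries lay above all 5 untreated libraries, a separation that 2.50% of all tested genes (338 of 13547) showed in that direction. The lower groups rest on few counts per library, 3 to 16 in untreated and 4 to 18 in early ND, against 75 to 107 in late ND.

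Prtn3 was higher in late ND than in untreated mice by a log2 fold change of 1.61 (standard error 0.39), with adjusted p 0.0475 in the quasi-likelihood F test of edgeR, adjusted by Benjamini-Hochberg over all tested genes. It was the 1 member called higher of 1 tested, where 0.989% of all tested genes (134 of 13547) were called higher, and no member was called lower, where 2.01% of genes (272) were; that 0 of 1 was 0 at unadjusted p below 0.05 and 0 in DESeq2 too. DESeq2 also called Prtn3 higher (1.60, adjusted p 0.00365), as it did 2.01% of genes (272 of 13547). In edgeR the call sat close to the threshold. It was kept when untreated 5 was left out (1.80, adjusted p 0.0346) and lost when any 1 of the other 9 libraries was left out, where adjusted p rose to as much as 0.126 while log2 fold change stayed at 1.38 or more. Across the fits with 1 library left out the direction was thus steadier than the edgeR call, which also passed without the low-count filter (1.66, adjusted p 0.0130). The sign was reversed in an edgeR fit with monocyte markers as a covariate, described below (-0.30, adjusted p 0.961).

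Against early ND the Prtn3 difference was of similar size, 1.44 (standard error 0.41), and adjusted p was 0.0586 (edgeR, quasi-likelihood F test, Benjamini-Hochberg). By that tool 0 of 1 tested members was called higher, where 2.50% of all tested genes (333 of 13315) were, and 0 was called lower, where 2.48% (330) were. At unadjusted p below 0.05 the member passed, as did 23.8% of genes (3163) in either direction, and DESeq2 called it higher (1.43, adjusted p 0.0131), as it did 5.78% of genes (769). Leaving out early ND 5 gave 1.76 with adjusted p 0.0418, and leaving out late ND 2 gave 1.58 with 0.0427, both under the threshold. Leaving out any other library kept the difference at 1.20 or more without a call. Of the late ND libraries 3 lay above all of early ND, and early ND 5, at 3.93 CPM, lay above late ND 2 and late ND 3. Both comparisons use the same 5 late ND libraries and are not independent.

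Early ND and untreated mice did not differ measurably in Prtn3. Its log2 fold change came to 0.18 (standard error 0.44, with 0.978 as adjusted p, edgeR's quasi-likelihood F test, Benjamini-Hochberg). By that tool 0 of 1 tested members was called in either direction, where 0.00% of genes (0 of 12151) were called higher and 0.00% (0) lower. At unadjusted p below 0.05 it was 0 members, where 4.44% of genes (539) passed, and 0 in DESeq2. The sign itself depended on single libraries: it fell to -0.14 without early ND 5, the highest library of that group.

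Prtn3 was measured again with the 3 libraries poor in 18S RNA left out. Its log2 fold change was then 1.78 against early ND (adjusted p 0.0560) and 1.74 against untreated (adjusted p 0.122), so the size did not fall although fewer libraries carried it. Those libraries included the 2 lowest of late ND, 3.25 and 3.55 CPM.

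The blood of late ND mice also held a smaller share of hemoglobin RNA, 22.0 ± 6.73% of gene counts against 48.5 ± 10.4% in early ND and 48.4 ± 12.7% in untreated. Leaving the hemoglobin genes out before scaling gave Prtn3 log2 fold changes of 1.43 against early ND and 1.61 against untreated. Scaling by library totals instead gave 2.24 and 2.47, but it also moved the median of all tested genes to 0.86 and 0.91, from 0.01 and 0.00. The Prtn3 difference was thus present on each scale, and its size depended on the scale.

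**Figure D2:**
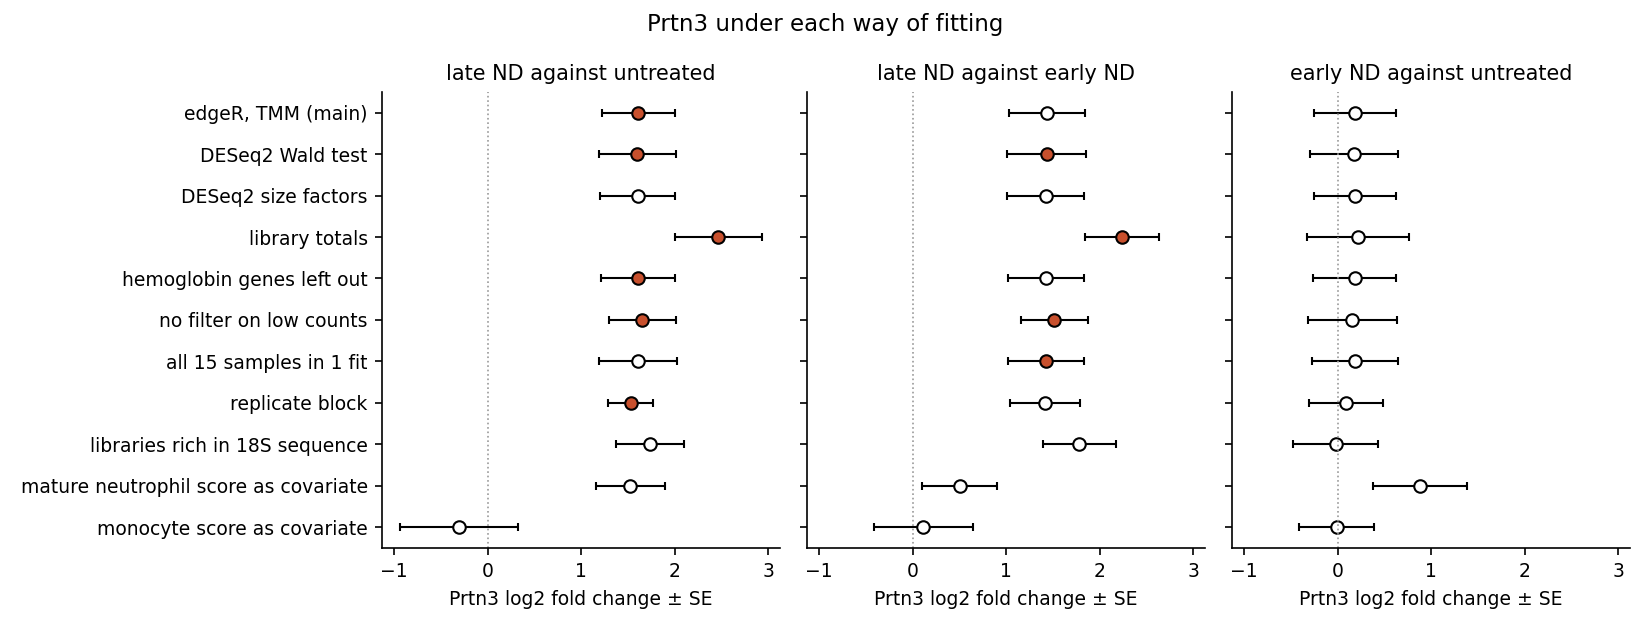
Log2 fold change of Prtn3 with its standard error in each comparison (panels) under each setting of the analysis; filled points have adjusted p below 0.05. The value of the first setting was 1.44, 1.61 and 0.18 for late against early ND, late ND against untreated, and early ND against untreated.

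The other 4 genes did not pass the low-count filter, and their counts were pooled by group. In the edgeR fit without that filter 886 of 28650 genes were called higher and 396 lower in late against early ND. Late ND against untreated gave 170 and 292 of 28562, and early ND against untreated gave 0 and 0 of 26892. Beside these small shares 0 of the 4 were called in any comparison, and 0 passed at unadjusted p below 0.05. The 4 genes were not in the DESeq2 fit. Their lowest adjusted p was 0.580 in late against early ND (Elane), 0.492 in late ND against untreated (Ms4a3) and 0.717 in early ND against untreated (Ms4a3). In that fit late against early ND gave log2 fold changes of 0.10 for Mpo (standard error 1.00), 1.49 for Elane (1.16) and -1.03 for Ctsg (0.86), and late ND against untreated gave 1.47 (1.15), 2.18 (1.32) and -0.61 (0.94). These standard errors were more than 2 times that of Prtn3, and for Ms4a3, at 0 in untreated, a fitted change would rest on the prior count. A library with 0 counts could have held up to 0.120 CPM in the deepest case (late ND 2) and up to 1.21 CPM in the shallowest (untreated 1), taking 3 counts as the limit. Pooled limits were 0.0924 CPM in untreated, 0.105 in early ND and 0.0340 in late ND. The intervals and limits given here cover counting error only, not differences between mice.

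Mpo, whose enzyme makes hypochlorous acid, averaged 0.0983 ± 0.145 CPM in untreated, 0.237 ± 0.326 in early ND and 0.283 ± 0.339 in late ND. It was counted in 2, 2 and 4 of the 5 libraries, and late ND 3 and late ND 5, with 12 counts each, held 24 of the 26 counts of late ND. Its pooled ratio of late to early ND was 0.935 (95% counting interval 0.425 to 2.27). Against untreated, with 3 counts, the ratio was 3.19 in late ND (0.978 to 16.5) and 3.41 in early ND (0.851 to 19.6). No difference in Mpo was resolved, and the pooled ratio and the group means of late and early ND did not share a direction.

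Elane, the neighbor of Prtn3 in the genome, was counted in 1 untreated, 1 early ND and 4 late ND libraries. Its means were 0.0804 ± 0.180, 0.0509 ± 0.114 and 0.200 ± 0.135 CPM. The pooled ratio was 2.59 for late over early ND (0.609 to 23.2) and 5.89 for late ND over untreated (0.915 to 247), from 2, 1 and 16 counts in early ND, untreated and late ND. Early ND and untreated had 3 or fewer counts each, and no ratio between them is given. The direction in late ND was that of Prtn3, but the counts did not resolve it.

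Ctsg, a protease with chymotrypsin-like activity, had no settled direction. It averaged 0.286 ± 0.498 CPM in untreated, 0.402 ± 0.449 in early ND and 0.161 ± 0.0676 in late ND, and was counted in 2, 3 and 5 libraries. The pooled ratio was 0.453 for late over early ND (0.187 to 1.14), 0.644 for late ND over untreated (0.252 to 1.77) and 1.42 for early ND over untreated (0.505 to 4.14). Each interval included 1, and on library totals the order of late ND and untreated turned, with means of 0.258 and 0.202 CPM. It was seen in every late ND library at 1 to 4 counts each.

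Ms4a3 had 0 counts in all 5 untreated libraries, which puts it under 0.0924 CPM there. It averaged 0.0764 ± 0.171 CPM in early ND, where early ND 1 alone held its 3 counts, and 0.0911 ± 0.0913 in late ND, with counts in 3 libraries. The pooled ratio of late to early ND was 0.863 (0.207 to 5.05). The pooled late ND level, 0.0907 CPM, was itself under the untreated limit, so no ratio to untreated is given. Each ratio interval of these 4 genes included 1, and the 5 genes did not show a shared change that could be measured.

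Across the 15 libraries the 5 genes followed one another only in part. Pearson r was 0.715 for Mpo with Ms4a3, 0.638 for Elane with Ms4a3 and 0.530 for Elane with Prtn3. Prtn3 had r 0.192 with Mpo and -0.341 with Ctsg. These are descriptions of sparse counts, in which a few libraries set the value.

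Prtn3 and Elane lie 3.07 kb apart on chromosome 10, and 12 other genes start within 50 kb. Of these, 2 of 8 tested were called higher in late than in early ND by edgeR (quasi-likelihood F test, Benjamini-Hochberg): Plppr3 (0.50, standard error 0.11, adjusted p 0.0259) and Arid3a (0.84, standard error 0.19, adjusted p 0.0323). Of all tested genes 2.50% were called higher in that comparison. There 4 of the 8 passed at unadjusted p below 0.05 and 3 in DESeq2, and their log2 fold changes ran from -0.16 to 1.08 with a median of 0.40, beside 1.44 for Prtn3. Against untreated 0 of 9 were called by that test (1 at unadjusted p below 0.05, 0 in DESeq2), and their log2 fold changes ran from -0.35 to 0.49, beside 1.61 for Prtn3. In early ND against untreated 0 of 8 were called (0 unadjusted, 0 in DESeq2). Plppr3 bears on Prtn3 directly, because 11.4% of the exon bases of Prtn3 overlap it on the opposite strand. Plppr3 was at 20.1 ± 2.79, 16.7 ± 2.05 and 23.0 ± 0.996 CPM in untreated, early ND and late ND, with a late ND to untreated change of 0.19 (adjusted p 0.443). The strand setting of the counting was not stated, so in the overlap reads of the 2 genes cannot be told apart. The same holds for Mpo, of whose exon bases 15.3% overlap Gm11505.

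The promoters of Prtn3 and Elane are shown because these are adjacent genes of one protease family, one counted in every library and the other in few. Each sequence runs from 250 bases before to 50 bases after the RefSeq transcription start, from a RefSeq promoter table of build GRCm38.p6, placed by exact match in GRCm39. Prtn3 lies at chr10:79715251-79715550 and Elane at chr10:79721896-79722195, both on the + strand. Capitals mark matches to AGGAAGT, a site of the ETS type bound by PU.1, and CAACNG, a site of the MYB type, both searched on both strands.
Prtn3: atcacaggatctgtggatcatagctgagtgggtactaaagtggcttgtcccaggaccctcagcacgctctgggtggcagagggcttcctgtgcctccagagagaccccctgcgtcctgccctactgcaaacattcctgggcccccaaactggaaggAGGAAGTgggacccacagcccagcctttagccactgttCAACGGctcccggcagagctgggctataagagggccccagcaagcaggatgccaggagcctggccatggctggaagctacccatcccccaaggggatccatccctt
Elane: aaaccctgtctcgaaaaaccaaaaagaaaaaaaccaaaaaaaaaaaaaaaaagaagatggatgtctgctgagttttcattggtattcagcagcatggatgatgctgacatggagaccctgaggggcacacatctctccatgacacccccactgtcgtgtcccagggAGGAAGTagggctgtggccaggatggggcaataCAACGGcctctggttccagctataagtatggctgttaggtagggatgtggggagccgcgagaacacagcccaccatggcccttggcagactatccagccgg

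Both promoters carried both motifs in the same order and at similar places. AGGAAGT began 94 bases before the start in Prtn3 and 84 in Elane, and CAACGG began 56 and 51 bases before it. AGGAAGT was found in 4 of the 5 genes (all but Ms4a3) and in 9.35% of all 32851 promoters of the table. CAACNG was found in Elane, Prtn3 and Ctsg and in 35.0% of promoters. TTGCNNAA, of the C/EBP type, was found in Ms4a3 alone (10.8% of promoters) and TGTGGT, of the RUNX type, in Ctsg alone (16.8%). These are matches of short sequences, and binding was not measured.

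Other genes of the primary granule were compared with Prtn3. Whether they are transcribed in the same blood cells as Prtn3 was not tested. In untreated mice Lyz2 averaged 1801 CPM, Srgn 635 and Ctsc 85.7, against 1.91 for Prtn3. Bpi and Fcnb did not pass the low-count filter in the late ND comparisons. Of 8 such genes 6 were tested, and in late against early ND 0 were called by edgeR (3 at unadjusted p below 0.05, 0 in DESeq2), with a median log2 fold change of 0.49. Against untreated 1 was called higher, Ctsc (0.74, standard error 0.16, adjusted p 0.0293), which encodes the peptidase that activates the granule proteases (3 at unadjusted p below 0.05, 2 in DESeq2), and the median was 0.25. Lyz2, which encodes lysozyme and had the highest CPM of the list, was at 0.69 (adjusted p 0.0894) there. Prss57, a further serine protease of the granule, was at 1.91 ± 0.581 CPM in untreated, 1.32 ± 1.03 in early ND and 1.94 ± 0.683 in late ND, a change of 0.45 against early ND (adjusted p 0.615) and 0.13 against untreated (adjusted p 0.911). Of its exon bases 40.7% overlap Fstl3 on the opposite strand, so the doubt about strand is larger for Prss57 than for Prtn3. The difference in Prtn3 was larger than the median of these 6 tested genes, and that gap was not tested. The median leaves out the sparse members. In the unfiltered fit Elane was at 1.49 and 2.18, Mpo at 0.10 and 1.47 and Ctsg at -1.03 and -0.61, against early ND and untreated.

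Genes of later granules and of the mature neutrophil, which are transcribed after the primary granule genes, were set beside Prtn3. The 9 mature neutrophil markers had a median log2 fold change of 1.07 in late against early ND, where 0 were called by edgeR (8 at unadjusted p below 0.05, 6 in DESeq2), but 0.16 in late ND against untreated, where 0 were called (0 unadjusted, 0 in DESeq2). The 10 genes of secondary and tertiary granules had medians of 1.21 and 0.37, with 3 called higher against early ND (Itgb2l, Mmp8 and Cd177) and 1 against untreated (Chil3). At unadjusted p below 0.05 it was 7 and 1, and in DESeq2 6 and 1. The list did not move as a whole: 8 and 7 of the 10 changes were above 0. Ltf was at -0.07 and -0.50 and Camp at -0.42 and -0.90, without an edgeR call. Summed, the mature markers were at 8190, 11422, 4918, 11833 and 9499 CPM in untreated 1 to 5, at 4136, 2810, 7715, 3580 and 7040 in early ND 1 to 5, and at 10412, 6055, 11698, 15175 and 7426 in late ND 1 to 5, with S100a9 the most abundant and no marker at 0 in any library labelled whole blood. In early ND against untreated the mature markers had a median of -1.04 and Prtn3 had 0.18, with none of them called by edgeR or DESeq2. With the mean log2 CPM of the 9 mature markers as a covariate, Prtn3 differed by 0.50 against early ND (adjusted p 0.706) and by 1.52 against untreated (adjusted p 0.0628). In early ND against untreated the covariate moved Prtn3 from 0.18 to 0.88 (standard error 0.50), again without a call. None of these 3 fits gave a call, and against untreated the call of the fit without the covariate was lost.

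Monocyte markers had the highest median correlation with Prtn3 among the lists with at least 3 genes for it. Over the 15 libraries the median Pearson r of a list with Prtn3 was 0.811 for the 7 monocyte markers (single genes 0.325 to 0.897), 0.704 for secondary and tertiary granules, 0.595 for the mature neutrophil and 0.584 for the other primary granule genes, against -0.0134 for all 13630 genes. Summed, the monocyte markers were at 824, 564, 618, 992 and 693 CPM in untreated 1 to 5 and at 685, 599, 642, 815 and 1291 in early ND 1 to 5. In late ND 1 to 5 they were at 1568, 1175, 1074, 1629 and 1454 CPM. Early ND 5, the early ND library with most Prtn3, also had most of these markers in its group. F13a1 had the highest CPM of them over all 15 libraries, although in late ND Ccr2, at 394, was above F13a1, at 353. No marker was at 0 in any library, and 3 were called higher in late ND than in untreated (Csf1r, Fn1 and Ccr2) and 2 than in early ND (Csf1r and Fn1). Without untreated 3, late ND 1, late ND 4 or late ND 5, edgeR called 0 genes higher and 0 lower against untreated. The same held in libraries rich in 18S RNA. The edgeR calls against untreated in this and the other lists were thus lost in each of those fits. Against early ND, edgeR called 4 genes higher and 0 lower in libraries rich in 18S RNA. With the mature neutrophil covariate it called 0 higher and 0 lower.

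**Figure D3:**
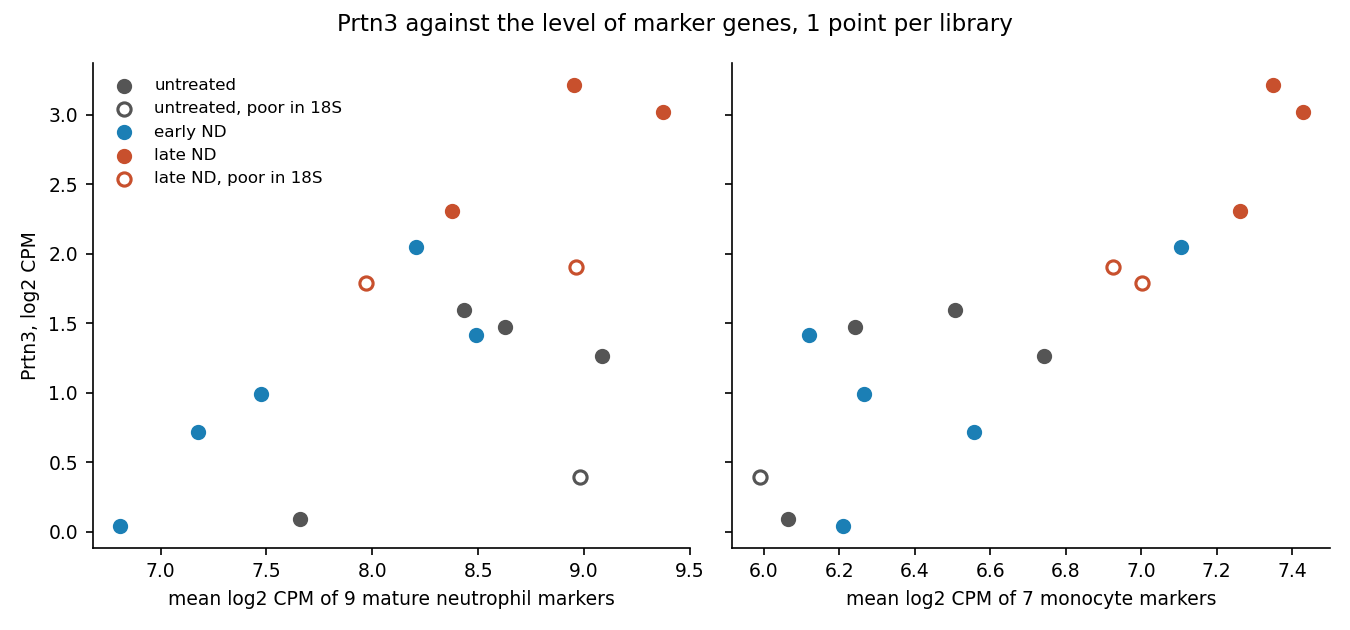
Log2 CPM of Prtn3 in each library against the mean log2 CPM of 9 mature neutrophil markers (left) and of 7 monocyte markers (right); colors give the group and open points the libraries poor in 18S RNA. The median Pearson r of single markers with Prtn3 over 15 libraries was 0.595 and 0.811.

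With the mean log2 CPM of the monocyte markers as a covariate, a setting chosen after the data were seen, the Prtn3 change was 0.11 against early ND (standard error 0.53, adjusted p 0.958) and -0.30 against untreated (standard error 0.63, adjusted p 0.961). The monocyte mean was 6.92 or more in every late ND library and 6.74 or less in every untreated library. In that comparison the covariate and the group therefore cannot be told apart, and the standard error rose from 0.39 to 0.63. The part of monocytes, neutrophils, red cells or depth in the Prtn3 result was not tested. In whole blood more cells of a type and more RNA per cell cannot be told apart, nor can fewer cells and less RNA per cell.

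Among the genes most alike to Prtn3 alone over the 15 libraries, also looked up after the data were seen, were Rnpep (r 0.959), Vcan (0.957), Cd93 (0.942), Cd302 (0.939), Grn (0.934), Naaa (0.933) and Eps8 (0.922), out of 13630 genes. They were picked for this likeness, and no test of it was made. Vcan, a proteoglycan of monocytes, was itself higher in late ND, by 1.40 against early ND (adjusted p 0.0239) and 1.43 against untreated (adjusted p 0.0242). Naaa was also called higher in both comparisons, Rnpep against early ND only and Cd302 against untreated only. Cd93, Grn and Eps8 were called in neither. Genes picked for following Prtn3 would tend to share its rise, so nothing is drawn from these calls. For the mean of all 5 genes the most alike were instead Mtnap1 (r 0.829), Brsk1, Dab2, Spg11, Sik1, Atp13a2, Igsf8 and C1qa (0.716), none of which is among those named for Prtn3. The mean of the 5 gives weight to the sparse members, and only 3 of those 8 genes returned with Spearman's rho.

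Progenitor and dividing cells, which carry most primary granule transcripts in marrow, were also looked at through their markers. Of 6 stem and progenitor genes tested, Flt3 alone was called higher, by 0.94 against early ND (adjusted p 0.0413) and 1.28 against untreated (adjusted p 0.0242), and the list medians were 0.13 and -0.14. Of the proliferation genes edgeR called 2 of 5 tested lower against early ND (Birc5 and Rrm2, list median -0.99) and 1 of 6 against untreated (Birc5, list median -0.67), while Tk1 was at 0.11 and 0.15. In the same comparisons 4 and 2 proliferation genes passed at unadjusted p below 0.05, and DESeq2 called 3 and 2. Erythroid genes had medians of -2.38 and -2.56 with 4 and 3 of 7 tested called lower by edgeR. All 7 passed at unadjusted p below 0.05 in both comparisons, and DESeq2 called 7 in each. Flt3 was thus the only gene of these lists that edgeR called in the direction of Prtn3.

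No transcription factor of granulocytes and no inhibitor of the proteases was called by edgeR, and DESeq2 called some of each against early ND. Of all tested genes edgeR called 2.50% higher and 2.48% lower against early ND, and 0.989% and 2.01% against untreated. A count of 0 in lists this short lies near those shares, here and in the other lists. Of 9 factors 0 were called by edgeR against early ND (4 at unadjusted p below 0.05, 2 in DESeq2) and 0 against untreated (1 unadjusted, 0 in DESeq2), with medians of 0.50 and 0.31. Of 4 inhibitors 0 were called against early ND (2 unadjusted, 1 in DESeq2) and 0 against untreated (0 unadjusted, 0 in DESeq2), with medians of -0.28 and -0.11. Of the 6 T cell genes edgeR called Cd3g lower in late ND than in untreated (5 lower at unadjusted p below 0.05, 3 in DESeq2), and 0 against early ND (0 unadjusted, 0 in DESeq2). Basophil and mast cell, eosinophil, B cell, platelet and skin lists had 0 called by edgeR against untreated (0, 0, 0, 2 and 0 at unadjusted p below 0.05, and 1 in DESeq2, a platelet gene) and 0 against early ND (1, 0, 0, 1 and 0 unadjusted, 0 in DESeq2). In early ND against untreated no gene of any list was called by edgeR or DESeq2, and at unadjusted p below 0.05 4 genes of secondary and tertiary granules, 6 mature neutrophil markers and 1 stem and progenitor gene passed.

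**Figure D4:**
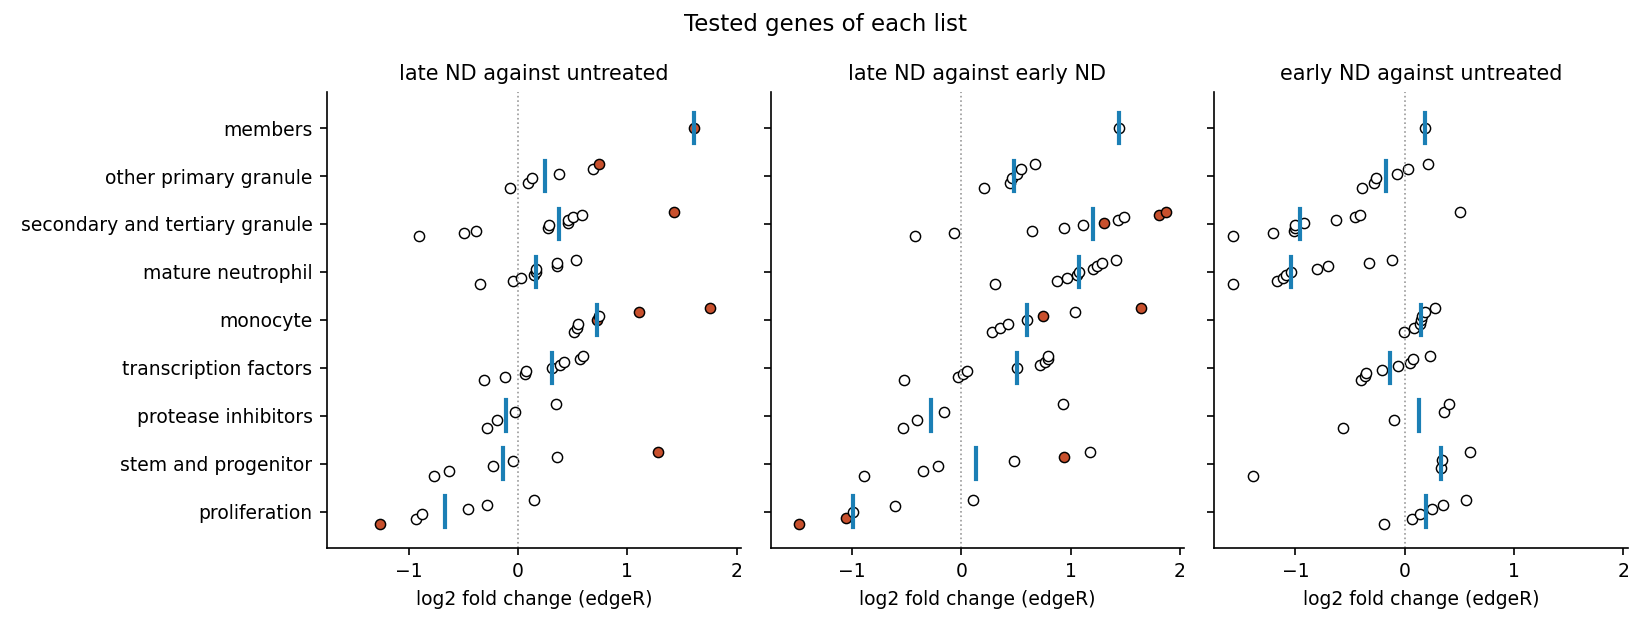
Log2 fold change of each tested gene of each list in the 3 comparisons, with filled points for adjusted p below 0.05 and a bar at the median of the list. The monocyte list had medians of 0.60, 0.73 and 0.15 in late against early ND, late ND against untreated, and early ND against untreated.

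In these libraries, then, Prtn3 alone of the 5 genes passed the low-count filter, with as few as 3 counts in an untreated library. It was higher in late ND than in untreated in all 5 libraries, with a DESeq2 call and an edgeR call. That edgeR call was lost in 9 of the 10 fits with 1 library left out. Prtn3 was also higher than in early ND, in a comparison that edgeR did not call and DESeq2 did. There the log2 fold change was 0.50 with the mature neutrophil covariate, without a call. With the monocyte covariate, which could not be told apart from the group, the sign against untreated was reversed (-0.30). Mpo, Elane, Ctsg and Ms4a3 had at most 12 counts in any library, and no difference was resolved for any of them.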

How the data were processed

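The gene counts deposited by the authors were used as they are; reads were not aligned again. By the notes of the submitters they came from STAR 2.7.9, SAMtools 1.7 and HTSeq 0.13.5 on GRCm39 (mm10 is named as well); annotation release and strand setting were not given. Lines of the counter that name no gene held 75.6 to 88.1% of all counts of a library and were left out. Members were found by name through Ensembl identifiers in GENCODE vM39, and 54749 of 55416 identifiers matched. Members and lists were chosen with earlier results of these data known. The lists named in the text were other primary granule genes, protease inhibitors, granulocyte transcription factors, secondary and tertiary granule genes, and markers of mature neutrophils, monocytes, stem and progenitor cells, proliferation, erythroid, T, B, basophil and mast cells, eosinophils, platelets and skin; 107 of 107 genes were found.

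Each comparison was fitted on its own 10 libraries with edgeR 4.0.16 in R 4.3.3: filterByExpr, TMM scaling, quasi-likelihood F test and Benjamini-Hochberg adjustment over all tested genes, with a call at adjusted p below 0.05. DESeq2 1.42.0 was the other tool. CPM are TMM scaled unless stated. Standard errors are those of the log2 fold change, and ± gives SD over 5 libraries. Pooled ratios use exact binomial intervals on summed counts. Other settings were DESeq2 size factors, library totals, hemoglobin genes left out, no count filter, a count floor in every library, all 15 libraries in 1 fit, a replicate block, libraries rich in 18S RNA only, and mature neutrophil markers as covariate. The monocyte covariate and the search with Prtn3 alone were chosen after seeing the data.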

Additional observations from a re-analysis of the deposited data

Results flagged for a closer look

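A library drew attention where its CPM stood apart from the others of its group, that is, where the gap to the nearest other library was a large part of the range of the group. Of 14 sets of 1 gene in 1 group that had any spread, 4 stood out. Chance alone gives about 1 in 20 for continuous values, a rate that does not hold for counts mostly at 0, since a group with 1 counted library has a gap of 1 by construction. Elane was counted in untreated 1 and in early ND 1 and in no other library of those groups, so the gap was 1 of the range, 1 being the whole of it, in each. Ms4a3 was counted in early ND 1 alone of its group, again a gap of 1. Ctsg in untreated 3 lay above the next library, untreated 2, by 0.758 of the range in CPM, 1.15 against 0.278, although both held 4 counts, in libraries of different depth. Each of these values rests on 1 to 4 counts, and none concerns Prtn3. The cause was not tested.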

How the results depend on the processing

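Prtn3 in late against early ND (1.44, adjusted p 0.0586) passed the threshold, at a similar or larger size, with DESeq2 (1.43, adjusted p 0.0131), library totals (2.24, 0.000132), no count filter (1.51, 0.0166) and all 15 libraries in 1 fit (1.43, 0.0496), so members called higher were 1 under each of these 4 in place of 0. It was 1.42 with DESeq2 size factors, 1.43 without hemoglobin genes, 1.78 in libraries rich in 18S RNA, 0.50 with the neutrophil covariate and 0.11 with the monocyte covariate. In late ND against untreated (1.61, adjusted p 0.0475) only adjusted p rose past the threshold, at a similar size, with DESeq2 size factors (1.60, 0.0518), all 15 libraries in 1 fit (1.61, 0.0515), 18S-rich libraries (1.74, 0.122) and the neutrophil covariate (1.52, 0.0628), and the sign was reversed with the monocyte covariate (-0.30, 0.961); members called higher were 0 under these 5. It was called with DESeq2 (1.60, 0.00365), library totals (2.47, 0.000205), no count filter (1.66, 0.0130) and hemoglobin genes left out (1.61, 0.0489). In early ND against untreated (0.18) it was reversed without untreated 2, which is the same fit as that of 18S-rich libraries (-0.0202), with the monocyte covariate (-0.0108) and without early ND 5 (-0.14), and was 0.88 with the neutrophil covariate. With a replicate block, Prtn3 was 1.42 (0.0624) against early ND and 1.53 (0.00536) against untreated, where 230 genes were called higher and 377 lower; the labels do not say that the numbers pair samples, and same-number correlations were 0.0289 to 0.579 in late ND with untreated, where 3 of 5 libraries correlated best with their own number, against 1 of 5 in late with early ND and 0 of 5 in early ND with untreated, so not every pair was above 0.1 and the numbers were not taken as pairs. Leaving out 1 library gave Prtn3 1.20 to 1.76 (late against early ND), 1.38 to 1.80 (late ND against untreated) and -0.14 to 0.39 (early ND against untreated), with 0 to 1 members called higher in both late comparisons, 36 to 1057 genes called higher and 106 to 553 lower against early ND, and 0 to 184 higher and 0 to 409 lower against untreated. Genes called higher in late than early ND (333) were 769 with DESeq2, 201 with size factors, 8923 with library totals, 886 without filter, 4 in 18S-rich libraries, 0 with the neutrophil and 23 with the monocyte covariate, and genes called lower (330) were 670 with DESeq2, 137 with totals, 0 in 18S-rich libraries and 0 with the neutrophil covariate. Against untreated genes called higher (134) were 272 with DESeq2, 7484 with totals, 0 in 18S-rich libraries and 0 with the monocyte covariate, and lower (272) were 538, 90 and 0 with the first 3 of these settings, 128 with the neutrophil and 1 with the monocyte covariate; early ND against untreated gave 1 higher and 2 lower with totals. Of the 8 genes most alike to the mean of the members, 3 were shared with Spearman's rho and 0 with Prtn3 alone. With a floor of at least 10 counts in every library no member could be tested, and the cause of these shifts was not tested. The limits are 5 mice a group, bulk blood, few counts for 4 of 5 genes, unequal depth and 18S content, and an unstated strand setting.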
